A study of Mus musculus with 11 samples.

Results

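Chemokines are small secreted proteins that bind G-protein-coupled receptors and direct the movement of leukocytes. The CC ligands Ccl3, Ccl4 and Ccl5 attract T cells and myeloid cells, and Ccl3 and Ccl5 bind Ccr1. The CXC ligands Cxcl1, Cxcl2 and Cxcl3 attract neutrophils through Cxcr2, whereas Cxcl10, an interferon-inducible ligand, attracts activated T cells through Cxcr3. Ccl1 is a ligand of Ccr8, a receptor found on many tissue Treg cells, and Xcl1 is the ligand of Xcr1 on cross-presenting dendritic cells. The 8 chemokine ligand genes Ccl1, Ccl3, Ccl4, Ccl5, Cxcl1, Cxcl2, Cxcl10 and Xcl1 were taken by symbol from a table of 52997 genes, and all 8 were listed in it. Ccl1 was selected on its counts in Spl/LN after adjuvant/Fat1562 against adjuvant alone, and Cxcl1 on its counts in VAT against Spl/LN after adjuvant/Fat1562, so the values of these genes in those comparisons, and in others that share the same libraries, are given as descriptions with no test.

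The counts come from 11 Smart-seq2 libraries of 1000 double-sorted clonotype+ CD45.2+ Treg cells each. The donor cells were Treg cells of male vTreg53 TCR-transgenic C57BL/6 mice, which carry the TCR of a single Treg clone from VAT. By the methods of the study, the donor mice also carried a Foxp3-GFP knock-in allele. The donor cells were transferred into CD45.1 B6 recipients. After 6 weeks the recipients were primed subcutaneously with the peptide Fat1562 in CFA and boosted 1 week later intraperitoneally with Fat1562 in IFA. After 1 more week the transferred Treg cells were sorted from pooled spleen and lymph nodes (Spl/LN) or from visceral adipose tissue (VAT). By the methods of the study, VAT was minced and digested with collagenase in a warm shaking bath, and no such step is described for Spl/LN. Differences between the tissues therefore cannot be told apart from effects of this digestion. Control recipients carried the same transferred cells and, by the methods of the study, received only the adjuvants, although their labels read PBS and unimmunized. They are called adjuvant alone here. Spl/LN gave 3 libraries with adjuvant alone and 3 with adjuvant/Fat1562, and VAT gave 2 and 3, all labelled as from mice 15 weeks old. All values describe 1 TCR, which limits them as a model of polyclonal Treg cells.

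Total counts per library ran from 4490242 to 6570057, and libraries of the same group differed by 5.33 to 11.4 times what counting error alone gives (chi-square over degrees of freedom). Foxp3, the lineage factor of Treg cells, had a mean normalized count between 7103 and 9834 in every group. Counts are of amplified fragments, since no molecular identifiers are named, so the intervals given for ratios of counts cover counting error only. A count of 0 in a library allows up to 3 counts. Because each library is a bulk sample, fewer cells making a transcript and less transcript per cell cannot be told apart.

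Several of the ligand genes are neighbors in the mouse genome (GENCODE vM21, GRCm38). Cxcl1 (ENSMUSG00000029380.11, chr5:90891241-90893115, + strand) and Cxcl2 (ENSMUSG00000058427.10, chr5:90903871-90905938, + strand) share a 120 kb stretch with Cxcl3 (chr5:90786103-90789600, + strand). Cxcl10 (ENSMUSG00000034855.13, chr5:92346638-92348889, − strand) lies on the same chromosome outside that stretch. Ccl5 (ENSMUSG00000035042.2, chr11:83525778-83530518, − strand), Ccl3 (ENSMUSG00000000982.5, chr11:83647844-83649355, − strand) and Ccl4 (ENSMUSG00000018930.3, chr11:83662584-83664683, + strand) lie within 139 kb. Ccl1 (ENSMUSG00000020702.13, chr11:82176657-82305690, − strand, with a long transcript of 11 exons) and Xcl1 (ENSMUSG00000026573.7, chr1:164931644-164935527, − strand) lie apart. Of the 38-base stretches of the transcripts, 3.93% of those of Cxcl2 and 7.46% of those of Cxcl3 occur in the other of these genes. For Cxcl10 6.33% and for Xcl1 13% occur in a gene annotated on the opposite strand (Art3 and Gm20743), and for the other members it was 0%. Whether the counting used strand is not given in the sources used here.

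The bases just before the start sites of the 3 neutrophil-attracting CXC genes are shown because these genes, which are neighbors, had counts in the same libraries. Each sequence covers the 120 bases before the RefSeq start site (GRCm38.p6), 5′ to 3′ on the gene's strand, and capitals mark matches to the NF-kB consensus, a motif bound by Rel-family factors, searched on both strands.
Cxcl1, chr5:90891125-90891244, + strand: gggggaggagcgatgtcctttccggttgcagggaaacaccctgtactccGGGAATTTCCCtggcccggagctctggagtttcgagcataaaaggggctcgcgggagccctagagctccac
Cxcl2, chr5:90903779-90903898, + strand: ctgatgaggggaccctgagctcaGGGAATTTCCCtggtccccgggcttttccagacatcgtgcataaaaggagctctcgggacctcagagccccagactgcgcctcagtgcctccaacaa
Cxcl3, chr5:90785981-90786100, + strand: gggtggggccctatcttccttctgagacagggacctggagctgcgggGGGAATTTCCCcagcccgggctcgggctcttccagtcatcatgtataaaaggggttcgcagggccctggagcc
The same 11-base run, GGGAATTTCCC, in which 2 matches on opposite strands overlap, stands at positions -71 to -61 before the start site in Cxcl1, -97 to -87 in Cxcl2 and -73 to -63 in Cxcl3. It was found within 250 bases before the start site in 14 of 32851 mouse promoters (0.0426%), and a match to the NF-kB consensus in 7.25%. The run was taken from these genes, which are among the 14, so its share describes a string chosen from them.

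By group mean Cxcl10 was highest in VAT with adjuvant alone, as the neutrophil-attracting ligands were. Unlike them, it was detected in every library, so the 250 bases before its start site are shown. In this sequence capitals mark, from the 5′ end, the core of the interferon-stimulated response element (GAAANNGAAA, both strands searched) and stretches that match the NF-kB consensus.
Cxcl10, chr5:92348890-92349139, − strand: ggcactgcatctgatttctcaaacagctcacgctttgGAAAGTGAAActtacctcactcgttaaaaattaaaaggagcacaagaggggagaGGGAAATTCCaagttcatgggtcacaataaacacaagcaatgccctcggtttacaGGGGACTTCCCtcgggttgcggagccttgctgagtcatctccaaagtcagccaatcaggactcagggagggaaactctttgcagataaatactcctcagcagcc
The response element core stands at -213 to -204 and was found in 2.98% of the 32851 promoters of the same length. The NF-kB matches begin at -159, -104 and -103, and the last pair overlap. Ccl1 holds an NF-kB match from -196 to -186, and neither motif was found in the windows of Ccl3 and Xcl1. A match is a description of the letters and was not tested as a binding site.

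**Figure D1:**
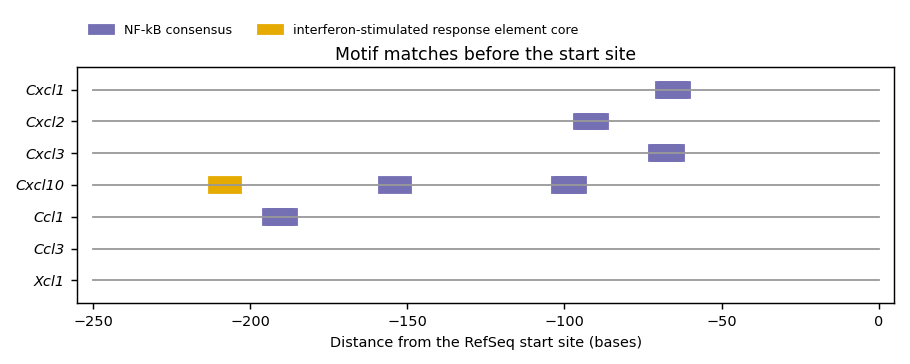
Positions of motif matches in the 250 bases before the RefSeq start site of 6 ligand genes and Cxcl3 (x axis, bases from the start site; one line per gene). Purple boxes are NF-kB consensus matches and the yellow box is the interferon-stimulated response element core of Cxcl10; Ccl3 and Xcl1 have no box.

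Among the neutrophil-attracting ligands, Cxcl2 had the highest counts, and nearly all of them were in VAT. It had 2, 0 and 1 raw counts in Spl/LN with adjuvant alone and 17, 9 and 7 in the same tissue after adjuvant/Fat1562. In VAT it had 1801 and 710 raw counts with adjuvant alone and 1109, 325 and 310 with adjuvant/Fat1562. Every VAT library stood above every Spl/LN library. With adjuvant alone the ratio of normalized counts between VAT and Spl/LN was 1503 (95% counting interval 514 to 7292), against only 3 counts in the 3 Spl/LN libraries together, and edgeR's quasi-likelihood test gave an adjusted p of 1.16e-07. On the log2 scale this fitted difference, 10.34, was 11.19 without Spl/LN adjuvant alone replicate 1 and 9.66 without VAT adjuvant alone replicate 1. After adjuvant/Fat1562 VAT was higher by a log2 fold change of 5.89 (SE 0.62, adjusted p = 2.80e-06 by edgeR). Without VAT adjuvant/Fat1562 replicate 1, the library with the highest count of its group, the latter was 4.88.

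Cxcl1 was lower in level than Cxcl2 but had its counts in the same tissue. It had 0, 1 and 0 raw counts in Spl/LN with adjuvant alone against 38 and 56 in VAT. The ratio of normalized counts was 169 (counting interval 29.6 to 6736), with an adjusted p of 0.000931 by edgeR. Cxcl1 passed the filter for testing (a mean scaled count above 10 in at least 1 group) only through its VAT groups, which partly sets this direction. The fitted log2 fold change, 6.95 (SE 1.22), depends on the single Spl/LN count and was 8.81 without the library that held it, Spl/LN adjuvant alone replicate 2. With adjuvant/Fat1562, the comparison by which Cxcl1 was chosen, it had 0 raw counts in all 3 Spl/LN libraries and 44, 14 and 4 in VAT. The VAT mean normalized count was 7.48 times a floor of 3 counts per library. The VAT counts after adjuvant/Fat1562 overlapped those with adjuvant alone.

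Cxcl3, another Cxcr2 ligand that was not among the 8 genes, also had most of its counts in VAT. It had 2, 0 and 0 raw counts in Spl/LN with adjuvant alone, 15, 2 and 0 in Spl/LN with adjuvant/Fat1562, 65 and 54 in VAT with adjuvant alone and 70, 42 and 26 in VAT with adjuvant/Fat1562. It was higher in VAT with adjuvant alone, with a ratio of 107 (counting interval 28.9 to 892, adjusted p = 0.000479 by edgeR), a fit that gave 9.11 in place of 6.48 on the log2 scale without Spl/LN adjuvant alone replicate 1. After adjuvant/Fat1562 it was higher in VAT by 3.13 on the log2 scale (SE 0.81, adjusted p = 0.0132 by edgeR). The latter call was lost without VAT adjuvant/Fat1562 replicate 1 (2.59, adjusted p = 0.0846) or without Spl/LN adjuvant/Fat1562 replicate 2 (2.79, adjusted p = 0.0644), as it was with DESeq2 (adjusted p = 0.0678), and the log2 fold change was 5.51 without Spl/LN adjuvant/Fat1562 replicate 1 and 2.51 without replicate 3. Within VAT after adjuvant/Fat1562, replicate 1 had the highest count of Cxcl1, Cxcl2 and Cxcl3 alike. Of the 38-base stretches of Cxcl3, 7.46% also occur in the far more abundant Cxcl2. The part of Cxcl2 reads in the Cxcl3 counts was not tested. Cxcl15, the remaining gene annotated as protein-coding between Cxcl3 and Cxcl2, had 3 counts in all in Spl/LN with adjuvant alone and 0 in the other groups.

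Between adjuvant/Fat1562 and adjuvant alone, Cxcl2 did not pass the test in either tissue. In VAT its log2 fold change was -1.20 (SE 0.44, adjusted p = 0.113 by edgeR), and replicate 1 after adjuvant/Fat1562, with 1109 counts, lay between the adjuvant-alone libraries. Without that library the value was -2.22 (adjusted p = 0.000253), and without VAT adjuvant alone replicate 1 it was -0.52. With all libraries kept and no filter on low counts the size barely changed (-1.21), but the adjusted p by edgeR was 7.62e-12 on the same overlapping counts. That p-value thus depended on which genes were fitted. In Spl/LN the ratio was 10.5 (counting interval 3.30 to 53.7) with an adjusted p of 0.308, although the 3 libraries after adjuvant/Fat1562 all stood above the 3 with adjuvant alone. The difference between these responses, the interaction of tissue and immunization, was -4.45 (SE 1.64, adjusted p = 0.159 by edgeR), and passed at -5.46 (adjusted p = 0.00243) without VAT adjuvant/Fat1562 replicate 1.

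**Figure D2:**
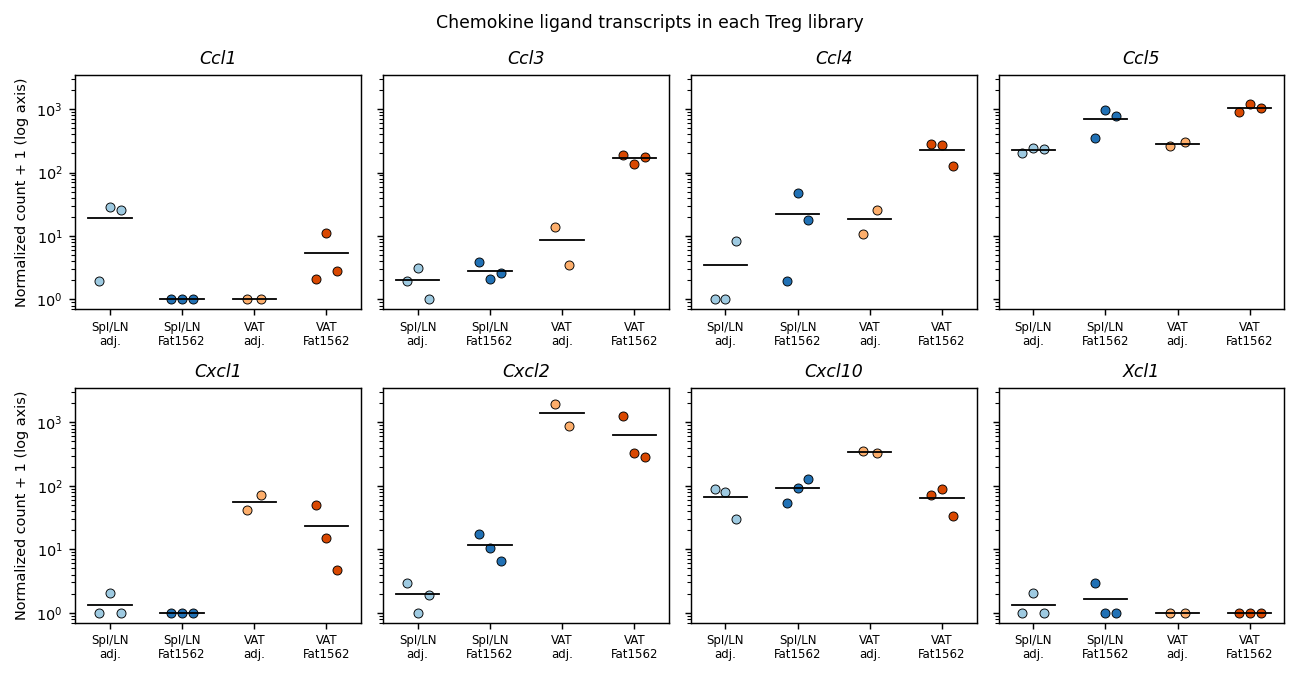
Normalized counts plus 1 (log axis) of the 8 ligand genes in each of the 11 libraries, by group; points are libraries and lines are group means. Cxcl1 and Cxcl2 points sit high in both VAT groups, Ccl3 and Ccl4 points in VAT after adjuvant/Fat1562, Cxcl10 points in VAT with adjuvant alone, and Xcl1 points lie at or near 1 everywhere.

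Early-response genes, transcripts of stimulated or freshly isolated cells such as Fos, Junb and Nr4a1, moved with the same libraries. The summed normalized count of a list of 18 such genes ran from 12766 to 15569 in Spl/LN, was 157503 and 132901 in VAT with adjuvant alone, and ran from 59436 to 78261 in VAT with adjuvant/Fat1562, where replicate 1 was again highest. Of the 18 genes, 16 were called higher and 0 lower in VAT with adjuvant alone (median log2 fold change 3.40, against -0.03 over all genes tested), where 9.09% and 7.17% of all genes were. With adjuvant/Fat1562, 17 were called higher and 1 lower (median 2.81, against -0.01), where 8.26% and 6.73% of all genes were. Within VAT, after adjuvant/Fat1562, 13 were called lower and 0 higher (median -0.95, against 0.01), where 3.97% and 4.32% of all genes were. Cxcl10 was also highest in VAT with adjuvant alone and lower there after adjuvant/Fat1562. The part of the early-response genes in the counts of Cxcl1, Cxcl2, Cxcl3 and Cxcl10 was not tested. Atf3, one of the list, had at most 1 raw count in a Spl/LN library and had 387 ± 210 (SD, n = 2) and 30.1 ± 18.6 (SD, n = 3) normalized counts in VAT with adjuvant alone and with adjuvant/Fat1562.

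The CC ligands Ccl3 and Ccl4 were highest in VAT after adjuvant/Fat1562. Ccl3 had 1, 2 and 0 raw counts in Spl/LN with adjuvant alone, 3, 1 and 2 in Spl/LN with adjuvant/Fat1562, 12 and 2 in VAT with adjuvant alone and 170, 133 and 192 in VAT with adjuvant/Fat1562. The last group stood apart from all others, and it alone brought Ccl3 past the filter for testing. In VAT, Ccl3 rose after adjuvant/Fat1562 by a log2 fold change of 4.37 (SE 0.56, adjusted p = 7.61e-05 by edgeR). The size rests on the adjuvant-alone libraries, at 6.00 without VAT adjuvant alone replicate 1 and 3.67 without replicate 2.

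Between tissues after adjuvant/Fat1562, Ccl3 was 89.8 times higher in VAT (counting interval 41.0 to 246, adjusted p = 3.05e-07 by edgeR). With adjuvant alone the ratio of VAT to Spl/LN was 8.38 (counting interval 2.34 to 45.5, adjusted p = 0.0265 by edgeR). The latter call was lost without VAT adjuvant alone replicate 1 (log2 fold change 1.25, adjusted p = 0.615), without Spl/LN adjuvant alone replicate 1 (2.88, adjusted p = 0.0577) without replicate 3 of that group (2.32, adjusted p = 0.0716) and with only the groups compared in the fit (2.85, adjusted p = 0.247), and its size was 3.58 without VAT adjuvant alone replicate 2 and 3.78 without Spl/LN adjuvant alone replicate 2. In Spl/LN the ratio between adjuvant/Fat1562 and adjuvant alone was 1.91 (counting interval 0.409 to 11.8, adjusted p = 0.705 by edgeR). The interaction was 3.52 (SE 1.38, adjusted p = 0.188 by edgeR), so a difference in the response of Ccl3 between VAT and Spl/LN did not pass the test at these counts.

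Ccl4 had 0, 0 and 8 raw counts in Spl/LN with adjuvant alone and 1, 43 and 21 there after adjuvant/Fat1562. In VAT it had 9 and 20 with adjuvant alone and 248, 261 and 136 with adjuvant/Fat1562, and again the last group did not overlap the others. After adjuvant/Fat1562 it rose in VAT by 3.69 on the log2 scale (SE 0.84, adjusted p = 0.0103 by edgeR). This call was lost without VAT adjuvant alone replicate 1 (3.15, adjusted p = 0.120) and, by a narrow margin, without VAT adjuvant/Fat1562 replicate 2 (3.54, adjusted p = 0.0505), and the value was 4.50 without VAT adjuvant alone replicate 2. DESeq2 gave it an adjusted p of 0.132.

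Ccl4 was also higher in VAT than in Spl/LN after adjuvant/Fat1562 (log2 fold change 3.41, SE 0.68, adjusted p = 0.00225 by edgeR), and at 4.56 without Spl/LN adjuvant/Fat1562 replicate 2, which held 43 of that group's 65 counts. DESeq2 gave the comparison an adjusted p of 0.0786. With adjuvant alone the tissue difference was 2.68 (SE 1.14, adjusted p = 0.130 by edgeR). It passed at 7.09 (adjusted p = 0.0321) without Spl/LN adjuvant alone replicate 3, the one library of that group with Ccl4 counts. In Spl/LN the response to adjuvant/Fat1562 was 2.96 (SE 1.01, adjusted p = 0.119 by edgeR) with overlapping groups. It passed without that same library (7.37, adjusted p = 0.0474) and without Spl/LN adjuvant/Fat1562 replicate 1 (3.52, adjusted p = 0.0352). The interaction of Ccl4, 0.74, had an interval of -2.31 to 3.79.

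Ccl5, which binds Ccr1 and Ccr3, was detected in every library and was higher after adjuvant/Fat1562 in both tissues. It had 208, 234 and 255 raw counts in Spl/LN with adjuvant alone and 372, 907 and 954 after adjuvant/Fat1562. In VAT it had 237 and 242 with adjuvant alone and 809, 1160 and 1120 with adjuvant/Fat1562. Within each tissue the groups did not overlap. Ccl5 rose by a log2 fold change of 1.62 in Spl/LN (SE 0.25, adjusted p = 0.000921 by edgeR) and of 1.89 in VAT (SE 0.29, adjusted p = 0.000398 by edgeR).

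The response of Ccl5 differed between the tissues by 0.27 on the log2 scale, with an interval of -0.45 to 0.99 (adjusted p = 0.789 by edgeR). The tissues themselves differed by 0.31 with adjuvant alone (interval -0.25 to 0.86, adjusted p = 0.530) and by 0.58 with adjuvant/Fat1562 (interval 0.12 to 1.03, adjusted p = 0.113), both by edgeR and neither past the threshold. The latter passed, at 0.89 (adjusted p = 0.0221), without Spl/LN adjuvant/Fat1562 replicate 2. Ccl9 and Ccl6, ligand genes between Ccl5 and Ccl3 on chromosome 11, held at most 1 and 12 raw counts per group. Rpl9-ps1, the other gene annotated as protein-coding in that stretch, held at most 3.

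Some transcripts of cytotoxic lymphocytes, Nkg7 and in VAT Prf1, moved with Ccl3, Ccl4 and Ccl5, and others did not. The summed normalized count of a list of 8 CD8 T and NK cell markers ran from 275 to 532 in Spl/LN with adjuvant alone, from 570 to 704 in Spl/LN with adjuvant/Fat1562, was 597 and 364 in VAT with adjuvant alone and ran from 1342 to 1355 in VAT with adjuvant/Fat1562. Nkg7, a protein of cytotoxic granules, carried much of this and rose after adjuvant/Fat1562 by 2.11 in Spl/LN (SE 0.32, adjusted p = 0.000819 by edgeR) and 2.82 in VAT (SE 0.36, adjusted p = 7.94e-05 by edgeR) on the log2 scale. Prf1, the pore-forming protein perforin, rose in VAT by 2.03 (SE 0.32, adjusted p = 0.000535 by edgeR), from 81.6 to 333 by mean normalized count, and in Spl/LN its value was -0.08 (adjusted p = 0.915). Klrb1c, an NK cell receptor, rose in Spl/LN from 2.23 to 25.5 (adjusted p = 0.0462 by edgeR) and was at most 1.36 in the VAT groups. Among the other markers, Cd8a was at 0 in all 5 VAT libraries and at most 2.13 by group mean in Spl/LN, and Ncr1 and Eomes were at most 0.912 and 0.678. Cd8b1 ran from 90.0 to 182 and Gzma from 21.8 to 92.8 by group mean, and neither passed the test in any comparison. In VAT both were lower by group mean after adjuvant/Fat1562 than with adjuvant alone, Cd8b1 at 115 against 182 and Gzma at 24.4 against 92.8. The part of these transcripts in the values of Ccl3, Ccl4 and Ccl5 was not tested. Of the 5 markers tested, 2 were called higher after adjuvant/Fat1562 in each tissue and 0 lower, where 4.32% of all genes were called higher in VAT and 2.58% in Spl/LN, with a median log2 fold change of 1.05 in VAT and -0.08 in Spl/LN (medians over all genes tested 0.01 and -0.00).

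Cxcl10, the Cxcr3 ligand, was highest in VAT with adjuvant alone. It had 328 and 265 raw counts there, against 92, 77 and 32 in Spl/LN with adjuvant alone, 55, 87 and 158 in Spl/LN with adjuvant/Fat1562 and 62, 85 and 35 in VAT with adjuvant/Fat1562. The VAT adjuvant-alone libraries stood above every other library, and the other 3 groups overlapped one another. With adjuvant alone it was higher in VAT by a log2 fold change of 2.38 (SE 0.41, adjusted p = 0.000559 by edgeR). It fell by 2.46 on the log2 scale after adjuvant/Fat1562 in VAT (SE 0.42, adjusted p = 0.00107 by edgeR). In Spl/LN the value was 0.47 (interval -0.30 to 1.23, adjusted p = 0.575 by edgeR), and between tissues after adjuvant/Fat1562 it was -0.55 (interval -1.32 to 0.23, adjusted p = 0.412 by edgeR).

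The response of Cxcl10 differed between VAT and Spl/LN by -2.93 on the log2 scale (SE 0.57, adjusted p = 0.00731 by edgeR). The 2 VAT libraries with adjuvant alone enter each of its 3 called differences. One of them, replicate 2, was rich in transcripts of B and plasma cells, with a summed normalized count of 12083 over 5 markers, against 859 in replicate 1 and 129 to 2320 in the other groups. Cxcl10 was higher in replicate 1 by normalized count (356 against 331). Without replicate 2 every one of its 3 differences kept its direction, but that fit leaves 1 library in the group, whose spread is then not measured.

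A list of 15 other interferon-gamma response genes was read beside Cxcl10. Of the 13 that were tested, 0 were called higher and 5 lower in VAT than in Spl/LN with adjuvant alone (median log2 fold change -0.32, against -0.03 over all genes tested), where 9.09% and 7.17% of all genes were called. In VAT after adjuvant/Fat1562, where Cxcl10 fell, 2 were called higher and 0 lower (median 0.12, against 0.01), where 4.32% and 3.97% of all genes were. Cxcl9 and Cxcl11, the other Cxcr3 ligands, had 0 counts in every library and at most 2 in a library, respectively.

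Ccl1 was detected in 6 of 11 libraries, at 27 counts or fewer. In the comparison by which it was chosen it had 1, 27 and 27 raw counts in Spl/LN with adjuvant alone. It had 0 in all 3 Spl/LN libraries after adjuvant/Fat1562. The adjuvant-alone mean normalized count was 5.97 times the floor of 3 counts per library, although replicate 1 lay below that floor. In VAT it had 0 and 0 counts with adjuvant alone and 1, 10 and 2 with adjuvant/Fat1562. The test by edgeR of this difference gave an adjusted p of 0.252. Both VAT means, 0 and 4.37, lay under the filter for testing. Ccl1 passed it only through Spl/LN with adjuvant alone, a group used to choose the gene, so no conclusion is drawn from this p-value. The adjuvant/Fat1562 mean was 1.46 times the floor, but replicates 1 and 3 lay below it. Most of the VAT counts came from replicate 2. Xcl1 had 1 count in Spl/LN with adjuvant alone, 2 in Spl/LN with adjuvant/Fat1562 and 0 in all 5 VAT libraries, and was below the filter for testing, which kept genes with a mean scaled count above 10 in at least 1 group.

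The counts of members called are descriptions, since the genes were chosen with results known. Between tissues with adjuvant alone 4 of 6 were called, all higher in VAT (Ccl3, Cxcl1, Cxcl2 and Cxcl10), where 16.3% of all 12932 tested genes were called. Between tissues after adjuvant/Fat1562 3 of 5 were called, all higher in VAT (Ccl3, Ccl4 and Cxcl2), against 15.0%. Between adjuvant/Fat1562 and adjuvant alone 4 of 6 were called in VAT, Ccl3, Ccl4 and Ccl5 higher and Cxcl10 lower, against 8.30%. In Spl/LN 1 of 5 was called, Ccl5, against 3.98%, and in the interaction 1 of 5, Cxcl10, against 3.72%. Cxcl1 passed the filter for testing only through its VAT groups, and Ccl3 only through VAT with adjuvant/Fat1562. The direction of their calls against these groups was therefore partly set by the filter. With adjuvant alone both group means of Ccl3, 1.02 and 7.76, lay under the filter. For these genes the shares over all genes are no yardstick. The comparisons share groups, so they are not independent of one another.

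**Figure D3:**
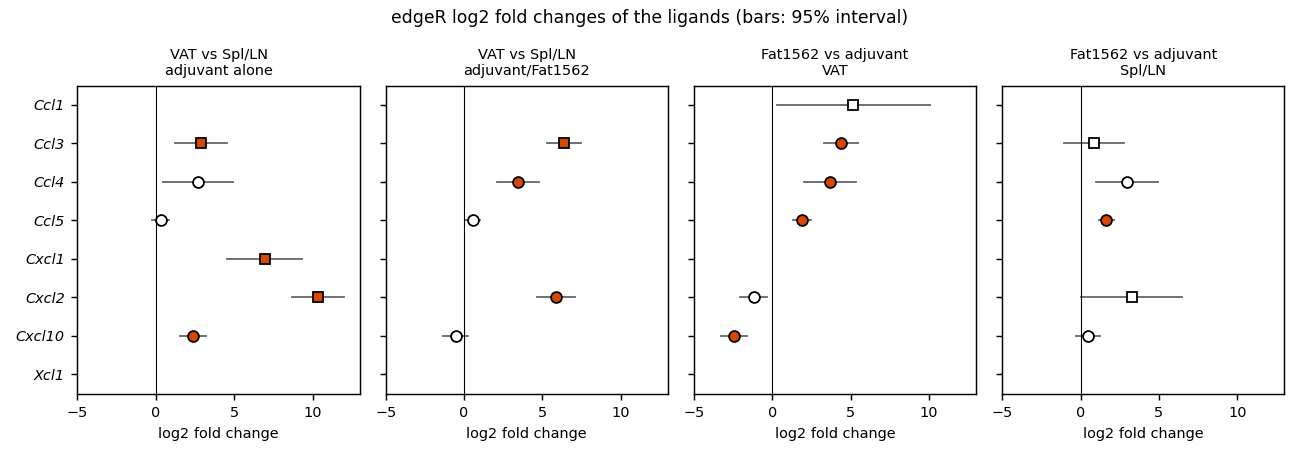
Log2 fold changes from edgeR (x axis) with approximate 95% intervals for the ligand genes, one panel per comparison; filled symbols passed an adjusted p of 0.05 and open symbols did not. Squares mark comparisons where one group had at most 3 counts per library, whose fitted size depends on the prior count, and a row with no symbol was not tested or was used to choose the gene.

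To compare levels between genes, normalized counts were divided by the length of the transcript that GENCODE vM21 numbers first for each gene, which gives a level per kb. In Spl/LN with adjuvant alone the order was Ccl5 at 424 ± 42.0, Cxcl10 at 60.3 ± 29.4 and Ccl1 at 29.3 ± 24.2 (SD, n = 3), and the ranges of Cxcl10 and Ccl1 overlapped. In Spl/LN with adjuvant/Fat1562 Ccl5 stood at 1309 ± 588, ahead of Cxcl10 at 82.9 ± 33.9 and Ccl4 at 32.2 ± 34.6 (SD, n = 3), which overlapped. In VAT with adjuvant alone Cxcl2 led at 1280 ± 681 per kb, followed by Ccl5 at 525 ± 59.5, Cxcl10 at 314 ± 16.3, Cxcl3 at 67.9 ± 2.19 and Cxcl1 at 58.3 ± 21.2 (SD, n = 2). The ranges of the first 3 did not overlap, whereas those of Cxcl3 and Cxcl1 did.

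In VAT with adjuvant/Fat1562 Ccl5 led at 1949 ± 256 per kb, and none of the other members or Cxcl3 reached its lowest library, 1709. Cxcl2 at 559 ± 490, Ccl4 at 338 ± 130 and Ccl3 at 218 ± 37.5 (SD, n = 3) followed, each overlapping the next, and then Cxcl10 at 57.3 ± 25.6, Cxcl3 at 47.6 ± 27.5, Cxcl1 at 23.6 ± 25.2 and Ccl1 at 7.16 ± 8.24. Of the raw counts of all 41 chemokine ligand genes listed, the members held between 75.8% and 96.7% in each library. Ccl5 held 52.0% to 59.9% of ligand counts in Spl/LN with adjuvant alone, 70.5% to 83.7% in Spl/LN with adjuvant/Fat1562, 9.17% and 17.2% in VAT with adjuvant alone and 31.4% to 58.4% in VAT with adjuvant/Fat1562. Cxcl2 held at most 3.22% in Spl/LN, 69.7% and 50.5% in VAT with adjuvant alone and 15.4% to 43.0% in VAT with adjuvant/Fat1562. The summed normalized count of all ligands ran from 386 to 1158 in Spl/LN and from 1749 to 2898 in VAT, with no overlap between the tissues.

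**Figure D4:**
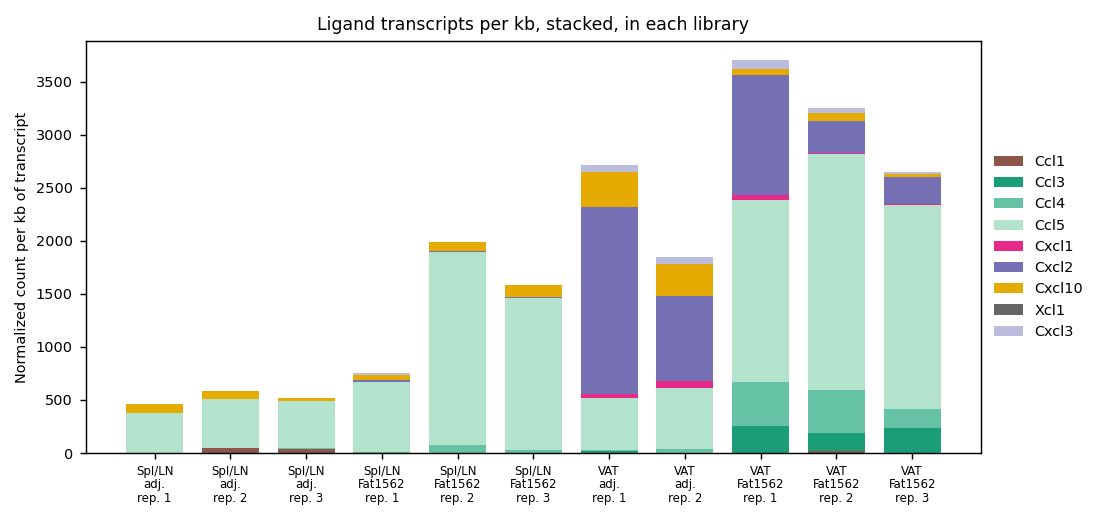
Stacked normalized counts per kb of transcript (y axis) of the 8 ligand genes and Cxcl3 in each library (x axis). Ccl5 makes up most of the Spl/LN bars, Cxcl2 the largest share of the bars of VAT with adjuvant alone, and the bars of VAT with adjuvant/Fat1562 add Ccl3 and Ccl4.

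Of the 33 other chemokine ligand genes listed, 4 passed the filter (Cxcl3, Cxcl16, Ccl25 and Cx3cl1) and 8 had 0 counts in every library. Cxcl16, the membrane-bound ligand of Cxcr6, had 7, 4 and 0 raw counts in Spl/LN with adjuvant alone and 33 and 14 in VAT, and was called higher there (log2 fold change 2.85, SE 0.93, adjusted p = 0.0449 by edgeR). That call was lost under 12 of 18 alternatives, with adjusted p-values from 0.0213 to 0.277. Ccl25 ran from 28.5 to 50.9 normalized counts by group mean, Cx3cl1 from 1.36 to 11.7 and Ccl27a from 4.16 to 6.97, and neither Ccl25 nor Cx3cl1 was called in any comparison. Over the 4 tested the median log2 fold change was 1.01 between tissues with adjuvant alone and 1.27 with adjuvant/Fat1562, against -0.03 and -0.01 over all genes tested. Cxcl3 and Cxcl16 passed the filter only through VAT groups and Cx3cl1 only through Spl/LN with adjuvant alone, so these medians are descriptions.

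The receptors of these ligands were measured in the same cells. Of 23 chemokine receptor genes 17 were tested, and 9 were called higher and 3 lower in VAT than in Spl/LN with either treatment (median log2 fold change 1.56 with adjuvant alone and 0.63 with adjuvant/Fat1562, against -0.03 and -0.01 over all genes tested). Over all genes, 9.09% were called higher and 7.17% lower with adjuvant alone, and 8.26% and 6.73% with adjuvant/Fat1562. After adjuvant/Fat1562, 4 were called higher and 4 lower in VAT (median -0.27), where 4.32% and 3.97% of all genes were, and 5 higher and 4 lower in Spl/LN (median 0.26), where 2.58% and 1.40% were. The interaction called 2 higher and 5 lower (median -0.61, against 0.01 over all genes tested), where 1.70% and 2.02% of all genes were called.

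Ccr8, the receptor of Ccl1, had 2793 ± 644 normalized counts in VAT with adjuvant alone (SD, n = 2) and 5606 ± 689 with adjuvant/Fat1562 (SD, n = 3). It rose by 1.00 on the log2 scale after adjuvant/Fat1562 in VAT (adjusted p = 0.000314 by edgeR), and in Spl/LN the value was 0.26 (adjusted p = 0.319). The difference between these responses was 0.74 (adjusted p = 0.0457 by edgeR), and it was not checked under the alternative settings.

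Ccr1 and Ccr3, receptors of Ccl5, moved the other way from Ccl3 and Ccl5 in VAT. Ccr1 fell by 1.86 on the log2 scale after adjuvant/Fat1562 in VAT, from 2102 ± 56.9 (SD, n = 2) to 580 ± 118 (SD, n = 3; adjusted p = 1.16e-05 by edgeR). Ccr3 fell by 2.07 there, from 728 ± 95.6 to 174 ± 9.07 (adjusted p = 2.21e-06 by edgeR). Cxcr3, the receptor of Cxcl10, rose in both tissues after adjuvant/Fat1562, by 2.12 in Spl/LN (adjusted p = 4.69e-05) and 1.72 in VAT (adjusted p = 0.000531), both by edgeR on the log2 scale.

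Cxcr2, the receptor of Cxcl1, Cxcl2 and Cxcl3, had 0 counts in all 6 Spl/LN libraries, 6 in all in VAT with adjuvant alone and 2 with adjuvant/Fat1562. Xcr1, whose ligand Xcl1 was at 3 counts over all libraries, had 13.6 to 16.0 normalized counts by group mean in Spl/LN and 60.0 to 67.0 in VAT. It was higher in VAT with adjuvant alone (log2 fold change 2.28, SE 0.57, adjusted p = 0.0104 by edgeR) and with adjuvant/Fat1562 (1.91, SE 0.53, adjusted p = 0.0200 by edgeR). The first call was lost without VAT adjuvant alone replicate 1 or with only the groups compared in the fit, and the second without Spl/LN adjuvant/Fat1562 replicate 1, without its replicate 3 or without VAT adjuvant/Fat1562 replicate 1, at adjusted p-values up to 0.105 and 0.0924. Of the other genes of the dendritic cell list, Clec9a, Itgax and Flt3 had mean normalized counts of at most 2.41 in any group. Zbtb46 ran from 35.0 to 107 and H2-Ab1 from 15.6 to 111, and after adjuvant/Fat1562 both were higher in VAT than in Spl/LN (adjusted p = 0.00885 and 0.0325 by edgeR). Their part in the values of Xcr1 was not tested.

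**Figure D5:**
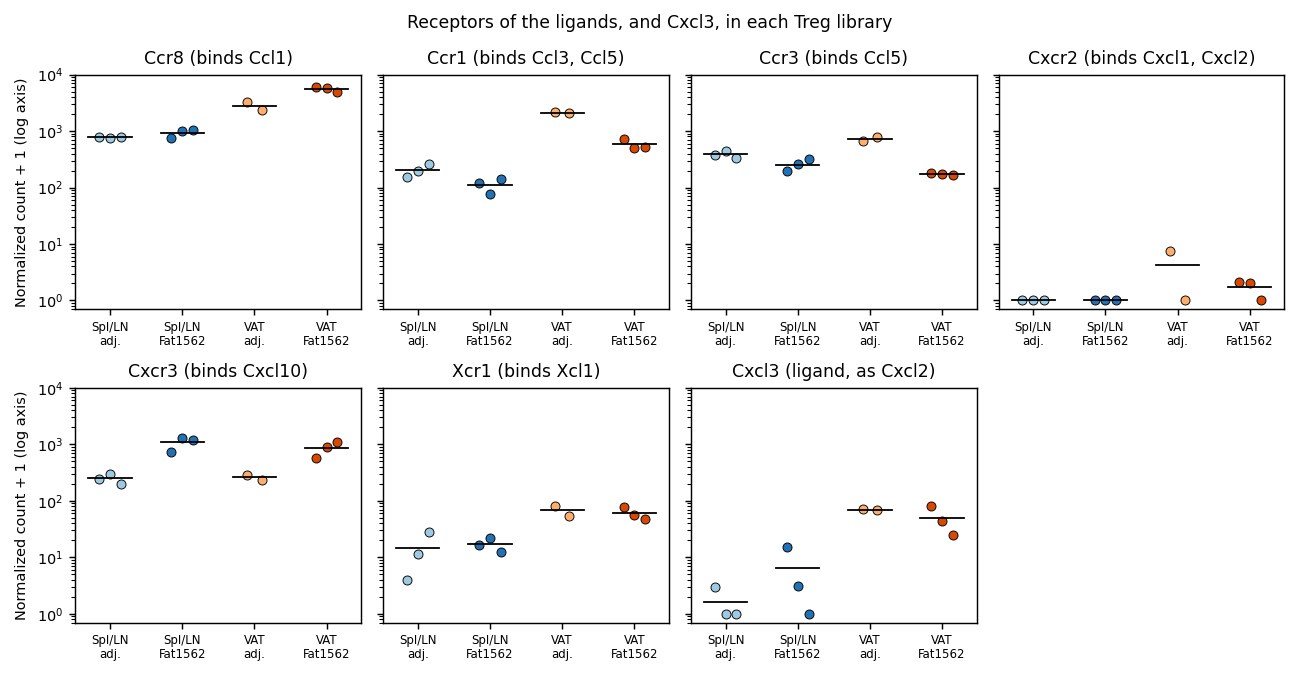
Normalized counts plus 1 (log axis) of 6 receptors and of the ligand Cxcl3 in each library, by group; points are libraries and lines are group means, and each title gives the ligands bound. Ccr8 points are highest in VAT after adjuvant/Fat1562, Ccr1 and Ccr3 points in VAT with adjuvant alone, and Cxcr2 points lie at or near 1 apart from 1 library of VAT with adjuvant alone.

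Markers of other cells that make these chemokines were measured in the same libraries. The summed normalized count of 8 macrophage and monocyte markers was at most 118 in a library and between 26.2 and 55.3 in VAT. By group mean in VAT, with adjuvant alone and with adjuvant/Fat1562 in turn, Lyz2 stood at 14.5 and 2.88, C1qa at 6.37 and 0.679 and Cd68 at 15.1 and 17.3. Adgre1 stood at 0 and 0.304, Cd14 at 0 and 3.59, and Csf1r, C1qb and Mrc1 were at most 3.30. Lyz2 and Cd68, the 2 of the list that were tested, were called in no comparison, and the part of the list in the values of Cxcl2 was not tested. Of 5 neutrophil markers the sum was at most 13.2, with S100a8 and S100a9 at 0 in all 5 VAT libraries and Ly6g at a group mean of 7.60 in VAT after adjuvant/Fat1562. Sums of 4 stromal markers and of 4 adipocyte markers were each at most 40.5. Of 3 endothelial markers, Pecam1, which T cells also express, held nearly all counts, with group means of 264 to 529, and Cdh5 and Kdr had at most 1.79 and 4.66. The dendritic list summed to between 64.1 and 301. Of 3 mesothelial markers, Lrrn4 alone was abundant, at 442 ± 66.6 in VAT with adjuvant alone (SD, n = 2) and 65.7 ± 22.5 with adjuvant/Fat1562 (SD, n = 3), while Msln and Upk3b were at most 2.25. The part of Lrrn4 and of the B and plasma cell transcripts in the ligand values was not tested.

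For the 5 members with a mean normalized count above 30, the genes with the most similar pattern were named by Pearson's r of log2(normalized count + 1) over 11 libraries, among 8600 genes. These libraries fall into 4 groups, so r mostly reflects group differences, and the value after removing group means is given beside it. For Cxcl2 these were Tagln2 (r = 0.99, within groups 0.83), Fam46a (0.98, 0.76) and Ctla4 (0.98, 0.71). For Ccl3 they were Il1r2 (0.98, 0.52), Ciapin1 (0.97, 0.28) and Gapdh (0.97, 0.58), and for Ccl4 Sub1 (0.96, 0.85), Ech1 (0.94, 0.74) and Il1rn (0.93, 0.65). Ccl5 was most like Apobr (0.98, 0.82), Pfkp (0.95, 0.61) and Prelid1 (0.95, 0.73). Cxcl10 was most like Tmem181a (0.93, 0.85), Dda1 (0.92, 0.80) and Ptar1 (0.91, 0.72), none of which is among the interferon response genes listed.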

How the data were processed

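Libraries were made from 1000 sorted Treg cells each by Smart-seq2 (oligo(dT) priming, PCR, Tn5 fragmentation) and sequenced with paired reads of 38 bases. The authors deposited whole-number counts per gene without normalization. The submitters' processing notes name STAR 2.5.4, featureCounts and mm10, while the methods of the study name Cuffquant and a filter of normalized reads on expression above 10 and a coefficient of variation under 0.7. The annotation and the strand setting are not given in the sources used here. The methods call the libraries biological replicates, and nothing in the sources ties libraries of the same number to one mouse.

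Sample labels gave the groups, and every column of counts was matched to a sample. With edgeR 4.0.16 in R 4.3.3, the 12932 genes with a mean scaled count above 10 in at least 1 group were fitted together over the 4 groups (TMM normalization, quasi-likelihood test, prior count 0.125). P-values were adjusted over all of them (Benjamini-Hochberg), with an adjusted p under 0.05 as the threshold for a call. The common biological coefficient of variation was 19.1%. The SE is the size of the log2 fold change over the square root of F, and intervals are 1.96 SE to each side. Normalized counts are brought to the mean library size by TMM factors, and errors are the SD between libraries. Ratios of low counts have exact binomial 95% intervals, and a fold against a group at 0 in every library was set against 3 counts per library.

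The 8 genes and all gene lists were chosen with earlier results of these data known. The genes named are the 8 members, the receptors known to bind them, every other ligand called in a comparison or among the 5 with the highest mean count, the 3 genes most like each member, and list members where a list is described. Some genes under this rule are not reported here. Atf3, Nkg7, Prf1, Klrb1c and Lrrn4 were picked from their lists after their values were seen. Promoter sequences came from RefSeq (GRCm38.p6), in which 6 of the 8 members and Cxcl3 were matched; Ccl4 and Ccl5 had no entry. The steps were also run on counts simulated with the same spread for all genes and with no changes set in low-count genes. That run does not show how they behave for ligands with few counts. The alternatives were median-of-ratios size factors, upper-quartile factors, library totals, no filter, a mean above 50, a coefficient of variation under 0.7, DESeq2 1.42.0, only the groups compared, the replicate number as a block, and each library left out in turn.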

Additional observations from a re-analysis of the deposited data

Results flagged for a closer look

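The response of Cxcl10 to adjuvant/Fat1562 differed between the tissues by a test of the difference itself, with an interaction of -2.93 on the log2 scale (SE 0.57, adjusted p = 0.00731 by edgeR's quasi-likelihood test). Both VAT libraries with adjuvant alone (328 and 265 raw counts) stood above all 3 after adjuvant/Fat1562 (62, 85 and 35), whereas in Spl/LN the groups overlapped (92, 77 and 32 against 55, 87 and 158). The call held under all 19 alternatives that gave a value, with adjusted p-values up to 0.0366. The VAT control group holds only 2 libraries, so an alternative that leaves out 1 of them rests on the other alone.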

How the results depend on the processing

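Of the comparisons of single genes and of counts of calls under 9 alternatives and with each of 11 libraries left out, 1238 kept their direction and their side of the threshold (counts within 1.5 times), 39 lost a call, 31 gained one, 27 counts moved and 10 values changed sign. The number of members called in Spl/LN was 1, and 3 with no filter, 2 with DESeq2 and 2 with the replicate block (1 to 2 with a library left out). In the interaction it was 1, and 2 with no filter, 2 with DESeq2 and 2 with the replicate block (1 to 2 with a library left out). Between tissues it was 1 with adjuvant alone and 1 with adjuvant/Fat1562 under a coefficient of variation below 0.7, which leaves only 2 and 3 members to test (3 to 4 in both with a library left out). In VAT it ran from 3 to 5 with a library left out. No filter brought calls of Ccl4 in Spl/LN and between tissues with adjuvant alone, of Ccl5 between tissues after adjuvant/Fat1562, and of Cxcl2 in Spl/LN, in VAT and in the interaction. DESeq2 lost both calls of Ccl4 and that of Cxcl3 between tissues after adjuvant/Fat1562, and gained Cxcl2 in Spl/LN and in the interaction. The fit of only the groups compared lost Ccl3 between tissues with adjuvant alone. The cause was not tested. Sign changes all fell on values far from the threshold. Cxcr3 between tissues with adjuvant alone was -0.069 with library totals and ran from -0.079 to 0.26 with a library left out. With a library left out, Cxcl16 ran from -1.72 to 0.40 in Spl/LN and from -0.97 to 0.060 in VAT, Xcr1 from -0.27 to 1.25 in Spl/LN and from -0.42 to 0.16 in VAT, and the interactions of Ccl4 from -3.67 to 1.89 and of Ccl5 from -0.045 to 0.58. Over all genes, calls in Spl/LN were 515, and 793 with no filter and with DESeq2, and in the interaction 481, and 783 with DESeq2. With a library left out the 5 counts ran from 1259 to 2114, 1289 to 2377, 508 to 1398, 190 to 502 and 240 to 575, in the order tissues with adjuvant alone, tissues with adjuvant/Fat1562, VAT, Spl/LN and interaction.

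Whether the replicate numbers pair the libraries was not settled. Same-numbered Spl/LN and VAT libraries had weakly correlated deviations, all positive, of 0.022 to 0.080. Those of differently numbered libraries ran from -0.105 to 0.051. Deviations were taken from group means, and those of the 2 VAT libraries with adjuvant alone mirror each other (for example 0.071 and -0.071). The contrast between same and different numbers is therefore partly built in. Spl/LN adjuvant/Fat1562 replicate 2 correlated best with VAT replicate 1. With the number as a block the members called were 4, 4, 5, 2 and 2 in the same order. It added calls of Cxcl2 in VAT, in Spl/LN and in the interaction and of Ccl5 between tissues after adjuvant/Fat1562. Depth limits Ccl1, Cxcl1, Xcl1 and the Spl/LN values of Ccl3 and Cxcl2, where a few counts decide a fold.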
